A study of Mus musculus with 15 samples.

Results

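The clock output genes measured here are 8 genes that the circadian clock is known to drive or that feed back on it. They are Dbp, Tef and Hlf, Nfil3, Bhlhe40 and Bhlhe41, Ciart and Wee1. They were picked by name, with their differences between ages in these mice already known, so every difference between ages in their levels is given below as a description with no test. They are 8 of the 33058 genes with a name in the deposited transcript table. The level of a gene is the sum of the FPKM of its listed transcripts, where FPKM is fragments per kilobase of transcript, scaled to the library's mapped fragments. All 8 had a value above 0 in every one of the 15 mice. Wee1 encodes a protein kinase and not a transcription factor, and it is kept with the group because it is a known target of the clock.

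The RNA came from kidney tissue of 15 male mice, 5 each at 3, 12 and 24 months, of the strain C57BL/6 by the labels and C57BL/6J by the methods of the study. Each of the 15 labelled samples had 1 library and was taken as 1 mouse, although the methods also speak of pooled kidney RNA, and whether any library held RNA of several mice is not given in the sources used here. According to the labels the groups differed in age alone, with the same strain, sex, housing at 25°C and standard chow, and no engineered allele or drug treatment. The methods of the study state that the young and old mice were killed on the same day under urethane anaesthesia. They do not describe the 12-month mice, and the hour of collection is not given in the sources used here, so the age and the hour of collection cannot be told apart in any comparison below.

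The libraries held between 5.03 and 6.13 Gb of aligned bases at 3 months, between 5.84 and 8.03 Gb at 12 months and between 6.07 and 7.33 Gb at 24 months. The 5 kidney markers Slc34a1, Lrp2, Umod, Slc12a3 and Aqp2 were detected in every group, and their summed level was between 2088 and 2670.3 FPKM in all mice. Of these, Aqp2 was past the call limits used below at 12 against 3 months (log2 difference -1.17, limma adjusted p = 0.191). The summed level of 6 leukocyte markers was between 3.61 and 9.90 FPKM at 3 months and between 6.73 and 14.1 FPKM in the older mice. That of 3 haemoglobin genes was between 364 and 1029 FPKM at 3 months and between 198 and 833 FPKM in the older mice, and the part of either in the results was not tested. The 4 adrenal markers summed to at most 3.25 FPKM, with Cyp11b1 at 0 in all mice at 3 and 12 months, the 3 adipose markers to at most 3.36 FPKM and the 2 skeletal muscle markers to at most 0.0710 FPKM. In tissue RNA, fewer cells of a type and less RNA per cell cannot be told apart.

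The circadian clock is a feedback loop in which CLOCK and BMAL1 (the product of Arntl) bind E-box elements and switch on their own repressors. Among the genes they switch on are those of the PAR bZIP factors DBP, TEF and HLF, which activate genes through D-box elements. NFIL3, also called E4BP4, binds the same D-box and represses, and its gene is repressed by the REV-ERB receptors (the products of Nr1d1 and Nr1d2), so that in many tissues Nfil3 and Dbp peak at opposite times of day. BHLHE40 and BHLHE41 (DEC1 and DEC2) compete with CLOCK and BMAL1 for E-boxes, CIART (CHRONO) represses them, and WEE1 holds cells before mitosis by phosphorylating CDK1. In the kidney, clock output is known to govern daily rhythms of transport and of drug handling.

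**Figure D1:**
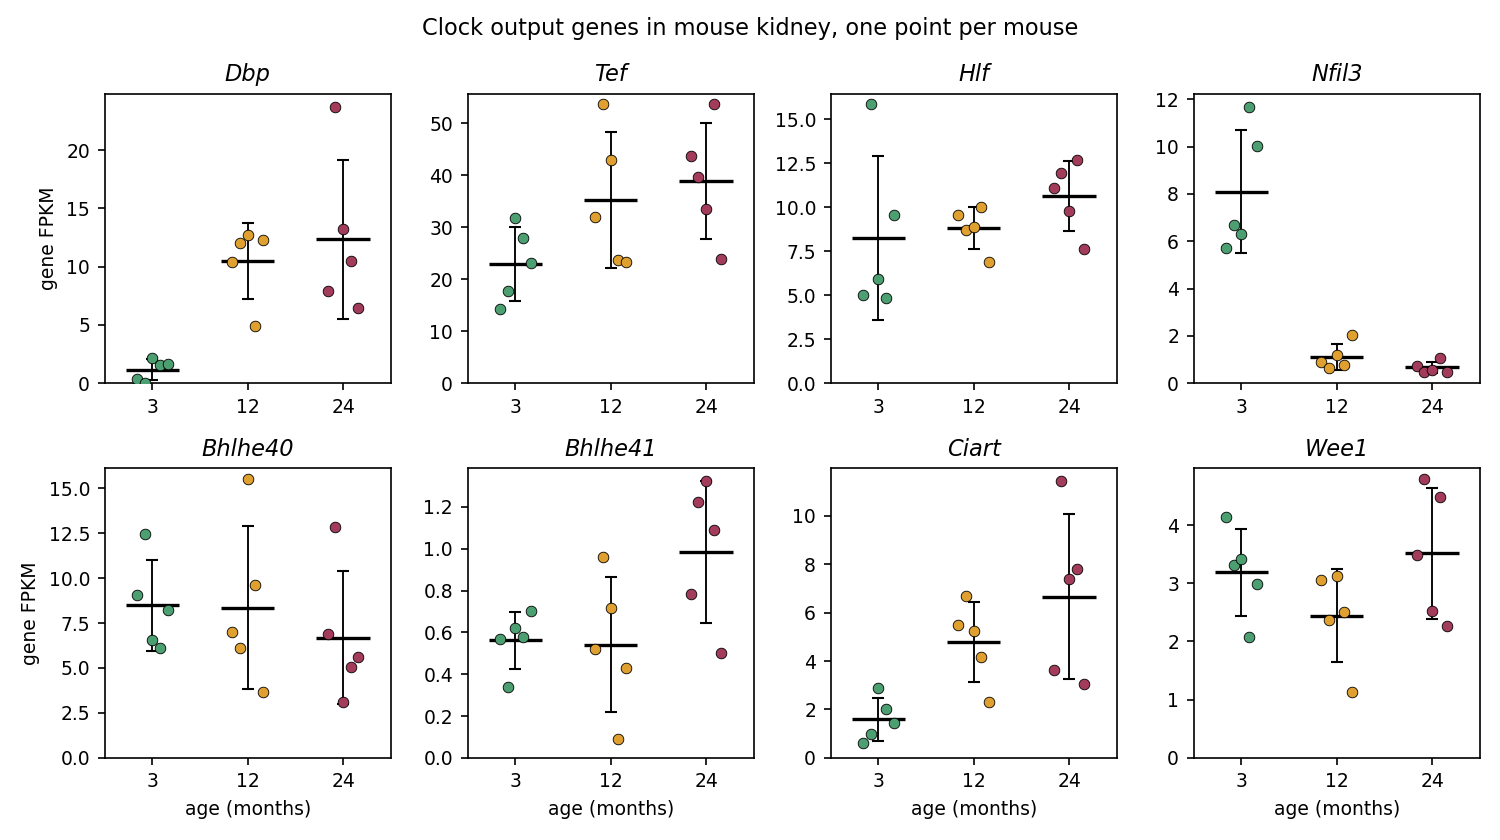
Gene FPKM (y axis, linear scale from 0, a separate scale for each gene) of the 8 clock output genes against age in months (x axis), with 1 point per mouse, a bar at the mean and whiskers of 1 SD (n = 5 mice per age). All 10 older mice lie above all 3-month mice for Dbp and below all of them for Nfil3, while Hlf, Bhlhe40 and Wee1 overlap at all ages.

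Dbp and Nfil3, which act in opposite directions on the same DNA element, differed in opposite directions between the 3-month mice and both older groups. Dbp was 8.93 times as high at 12 months and 10.5 times as high at 24 months as at 3 months by mean FPKM, while the Nfil3 mean at 3 months was 7.31 times that at 12 months and 12.1 times that at 24 months. Ciart was the remaining gene with a large difference, with means 3.01 and 4.20 times that at 3 months. Tef was 1.53 and 1.69 times as high, and among the other 4 genes the largest ratio to the 3-month mean was 1.75, for Bhlhe41 at 24 months. Between 12 and 24 months the ranges of all 8 genes overlapped.

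The first group of genes encodes the PAR bZIP activators. Dbp (chromosome 7, 45705088 to 45710203, plus strand, GRCm38) had FPKM of 0.405, 0.0624, 2.14, 1.59 and 1.67 in the 3-month mice 5 to 9. It had 10.4, 12.0, 12.7, 4.89 and 12.3 in the 12-month mice 17 to 21, and 7.92, 23.7, 13.2, 10.5 and 6.44 in the 24-month mice 31 to 35. The lowest older mouse was therefore above the highest young mouse, and the 3-month mice 5 and 6 were lower than the rest of their own group. The value of mouse 6 rested on 387 aligned bases over the whole gene, against a median of 12955 at 3 months and 154999 at 12 months. On the log2(FPKM + 1) scale the difference was 2.45 (SE 0.35) at 12 and 2.60 (SE 0.39) at 24 months against 3 months, and 0.15 (SE 0.35) at 24 against 12 months. This scale understates the change of a gene this low, and with a pseudocount of 0.1 the 2 differences from 3 months were 3.50 and 3.66.

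Tef (chromosome 15, 81802421 to 81827064, plus strand) was the most abundant of the 8 genes at every age. It had FPKM of 14.3, 17.8, 31.8, 27.9 and 23.1 at 3 months, 32, 53.8, 43.0, 23.7 and 23.4 at 12 months, and 43.7, 39.6, 33.5, 53.7 and 24.0 at 24 months. Each older group held mice within the 3-month range, namely 12-month mice 20 and 21 and 24-month mouse 35. The difference from 3 months was 0.57 (SE 0.28) at 12 and 0.74 (SE 0.25) at 24 months on the log2 scale.

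Hlf (chromosome 11, 90331329 to 90390908, minus strand) was between 4.87 and 15.9 FPKM at 3 months, between 6.92 and 10.0 at 12 months and between 7.66 and 12.7 at 24 months. The medians were 5.91, 8.91 and 11.1 FPKM. The highest value of all belonged to the 3-month mouse 6, which had the lowest Dbp. The log2 difference from 3 months was 0.21 (SE 0.28) at 12 and 0.44 (SE 0.29) at 24 months, and the mice of all ages overlapped. Of the PAR bZIP genes, Dbp thus had the largest difference from the young mice in both older groups, and also with annotated transcripts alone. Hlf had the smallest, but with annotated transcripts alone its differences (0.90 and 0.78) were above those of Tef (0.53 and 0.75).

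The D-box repressor Nfil3 (chromosome 13, 52966237 to 52981073, minus strand) went the other way. It had FPKM of 5.74, 6.70, 6.33, 11.7 and 10.0 at 3 months. It had 0.902, 0.639, 1.18, 0.775 and 2.04 at 12 months, and 0.723, 0.491, 0.576, 1.07 and 0.476 at 24 months. The highest older mouse, 12-month mouse 21, had less than the lowest 3-month mouse. The log2 difference was -2.10 (SE 0.22) at 12 and -2.41 (SE 0.19) at 24 months against 3 months, and -0.31 (SE 0.18) at 24 against 12 months. An assembled transcript within an intron of the gene, not counted here, had mean FPKM of 1.58, 0.827 and 1.01 by age, and with it the differences from 3 months were -1.84 and -1.92.

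The ratio of Dbp to Nfil3 within a mouse combines both genes and does not depend on the scaling of the library. It was between 0.00932 and 0.338 at 3 months, with a median of 0.136. It was between 6.03 and 18.8 at 12 months and between 9.78 and 48.2 at 24 months, with medians of 10.8 and 13.5. The ratio was below 1 in all 5 young mice and above 1 in all 10 older mice, and the 12- and 24-month ranges overlapped. That the ratio separated young from older mice follows from Dbp and Nfil3 each doing so, and adds nothing to it. The lowest ratio was that of 3-month mouse 6, whose Dbp rested on 387 aligned bases.

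Among the repressors of CLOCK and BMAL1, Ciart (chromosome 3, 95878503 to 95882251, minus strand) had FPKM of 0.618, 0.984, 2.89, 2.01 and 1.43 at 3 months. It had 5.50, 6.67, 5.23, 4.16 and 2.31 at 12 months, and 3.65, 11.4, 7.39, 7.79 and 3.04 at 24 months. The 24-month mice all lay above the 3-month mice, whereas 12-month mouse 21 lay within the 3-month range. The log2 difference from 3 months was 1.17 (SE 0.28) at 12 and 1.51 (SE 0.35) at 24 months. With annotated transcripts alone the former was 0.92, below the limit of 1 used for calls.

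Bhlhe40 (chromosome 6, 108659969 to 108668404, plus strand) was between 6.12 and 12.4 FPKM at 3 months, between 3.64 and 15.5 at 12 months and between 3.10 and 12.8 at 24 months. Its 3-month range lay within the 12-month range, and the log2 difference from 3 months was -0.11 (SE 0.32) and -0.38 (SE 0.30). Bhlhe41 (chromosome 6, 145858243 to 145865558, minus strand) was the least abundant of the 8 genes at 3 and 12 months, with medians of 0.575, 0.519 and 1.09 FPKM by age. Of the 24-month mice, 4 lay above the highest 3-month mouse and mouse 35 did not. The log2 difference was -0.04 (SE 0.15) at 12 and 0.33 (SE 0.14) at 24 months, and for a gene this low the latter became 0.67 with a pseudocount of 0.1.

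Wee1 (chromosome 7, 110122046 to 110143286, plus strand) was between 2.08 and 4.14 FPKM at 3 months, between 1.13 and 3.13 at 12 months and between 2.27 and 4.80 at 24 months. The log2 difference from 3 months was -0.30 (SE 0.20) at 12 and 0.09 (SE 0.20) at 24 months, and the latter became -0.02 without 3-month mouse 8 and -0.01 without 24-month mouse 32.

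**Figure D2:**
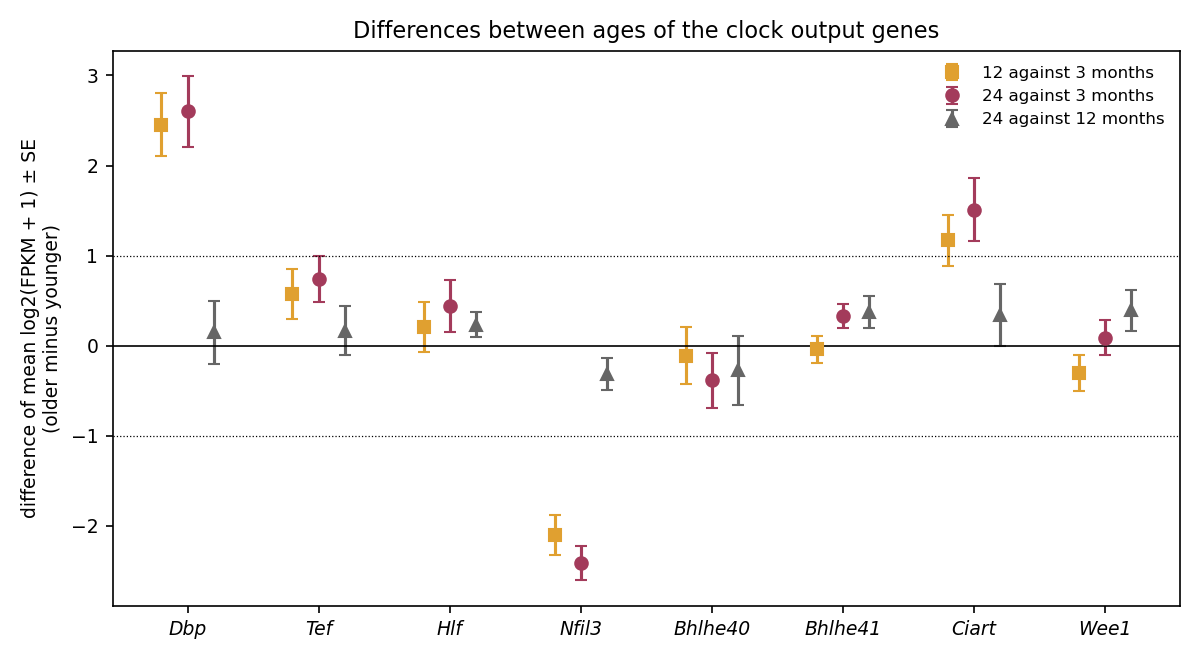
Difference between ages of mean log2(FPKM + 1), older minus younger (y axis, ± SE, 5 mice per age), for the 8 genes (x axis), with squares for 12 against 3 months, circles for 24 against 3 months and triangles for 24 against 12 months. Dotted lines mark differences of 1 and -1, past which only Dbp, Nfil3 and Ciart lie, in the 2 comparisons with the 3-month mice that share the same 5 young mice.

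Calls across the whole table used limma on log2(FPKM + 1), with p under 0.05 before adjustment and a log2 fold change past 1 in either direction. The fold limit is that of the study, whose methods set it beside a q value and not an unadjusted p. In the comparison of 24 with 3 months, 3 of the 8 genes were past these limits, against 0.523% of the 31755 genes tested, and in that of 12 with 3 months again 3 of 8, against 0.499% of 31637. These 3 were Dbp, Ciart and Nfil3 in both, and since these differences were known when the genes were chosen, the counts say nothing further about the group. Between 24 and 12 months 0 of 8 were past the limits, with 55 of all 32282 genes past them (0.17%). By an adjusted p under 0.05 alone, 2, 2 and 0 of the 8 were called, against 1.22%, 0.25% and 0.0031% of all genes. Without overlap of the 2 groups of mice were 3 of 8 genes at 24 against 3 months, where 4.73% of all genes did not overlap, 2 of 8 at 12 against 3 months, where 4.11% did not, and 0 of 8 at 24 against 12 months, where 1.07% did not. The median log2 difference over the 8 genes was 0.39, 0.08 and 0.20 for 24 against 3, 12 against 3 and 24 against 12 months, beside 0.02, 0.02 and -0.0013 over all genes.

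The order of the levels differed between ages mainly through Dbp and Nfil3. Tef came first at every age, with all 5 mice above every value of the next gene by mean. At 3 months Hlf nevertheless reached 15.9 FPKM in mouse 6, above the 14.3 FPKM of Tef in mouse 5. At 3 months Bhlhe40, Hlf and Nfil3 followed with means of 8.49, 8.24 and 8.10 FPKM and overlapping ranges, and all 3-month mice had more Nfil3 than the highest of them had Wee1. Then came Wee1, Ciart, Dbp and Bhlhe41, each overlapping the next. In both older groups Dbp stood in place 2 by mean, with a range overlapping that of Hlf, and Nfil3 stood in place 7 at 12 months and 8 at 24 months. Dbp was above Hlf in 4 of 5 mice at 12 months but in 2 of 5 at 24 months, where the medians were 10.5 FPKM for Dbp and 11.1 for Hlf. Relative to its own mean over 15 mice, Nfil3 varied most, with a coefficient of variation of 116%, followed by Dbp with 81.2% and Ciart with 69.3%. The coefficient was between 31.5% and 48.3% for the other 5 genes.

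RefSeq start sites of the GRCm38.p6 build were matched for 6 of the 8 genes, and Bhlhe40 and Wee1 had no entry. The 250 bases before each start were searched on both strands for the E-box CACGTG, which reads the same on both strands, for the D-box as TTATGTAA or TTACGTAA, and for AGGTCA, the core of the element bound by REV-ERB and ROR receptors. Of all 32851 promoter windows of this length, 6.02% held the E-box, 0.931% a D-box and 14% the AGGTCA core. For the 3 genes with the large differences and for Bhlhe41, the sequences give the bases of this window that lie outside any annotated exon and upstream of every listed transcript of the gene, 5′ to 3′ on the strand of the gene, with E-boxes in capitals.
Dbp, chr7:45704997-45705087, plus strand: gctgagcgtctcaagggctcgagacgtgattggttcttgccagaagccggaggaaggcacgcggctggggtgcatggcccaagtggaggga
Nfil3, chr13:52981074-52981289, minus strand: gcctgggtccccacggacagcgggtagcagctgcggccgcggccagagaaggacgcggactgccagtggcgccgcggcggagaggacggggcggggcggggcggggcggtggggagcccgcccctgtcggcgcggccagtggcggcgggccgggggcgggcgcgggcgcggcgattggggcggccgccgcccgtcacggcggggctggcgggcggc
Ciart, chr3:95882252-95882478, minus strand: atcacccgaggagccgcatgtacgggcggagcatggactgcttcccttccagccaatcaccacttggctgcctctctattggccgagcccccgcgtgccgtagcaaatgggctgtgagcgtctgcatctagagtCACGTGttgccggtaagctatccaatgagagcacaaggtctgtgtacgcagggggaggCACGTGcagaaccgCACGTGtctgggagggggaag
Bhlhe41, chr6:145865559-145865670, minus strand: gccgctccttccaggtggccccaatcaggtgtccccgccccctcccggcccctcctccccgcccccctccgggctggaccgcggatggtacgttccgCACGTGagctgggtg

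Ciart held 3 E-boxes, ending 111, 53 and 39 bases before the start, and Bhlhe41 held 1 E-box, ending 148 bases before it. Each of the 2 annotated starts of Tef also had 1 E-box in its window, ending 122 bases before the first start and 133 before the second. Both windows lie within the span of the listed Tef transcripts and are not shown. Nfil3 had 1 AGGTCA core on the opposite strand, 7 to 12 bases before the start. None of the 3 motifs was in the windows of Dbp and Hlf, and none of the 6 genes had a D-box, which says only that these letters are not in these 250 bases.

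The 8 genes had 57 listed transcripts, 34 of them annotated in Ensembl and 23 assembled by the authors. How much of a gene's level came from its annotated coding transcripts varied widely. Bhlhe41 and Wee1 were nearly all annotated coding RNA, with 98.5% and 100% of the FPKM at 3 months. Summed over the 5 mice of an age, annotated coding RNA made up 31.6%, 40.3% and 49.7% of Dbp at 3, 12 and 24 months. Transcripts annotated as retained introns made up 35.7%, 29.2% and 22.9%. The leading coding transcript of Dbp, ENSMUST00000080885, varied between mice, from 0 to 48.5%, from 6.24 to 63.5% and from 13.8 to 71.7% by age. Tef was led by the retained intron class at all ages, with 45.4%, 53.8% and 50.5%. For Ciart the summed coding share was 45.7%, 47.8% and 64.6%. Its leading coding transcript, ENSMUST00000159739, varied from 10.3 to 81.1%, from 28.8 to 53.7% and from 11.5 to 64.9% between mice by age.

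**Figure D3:**
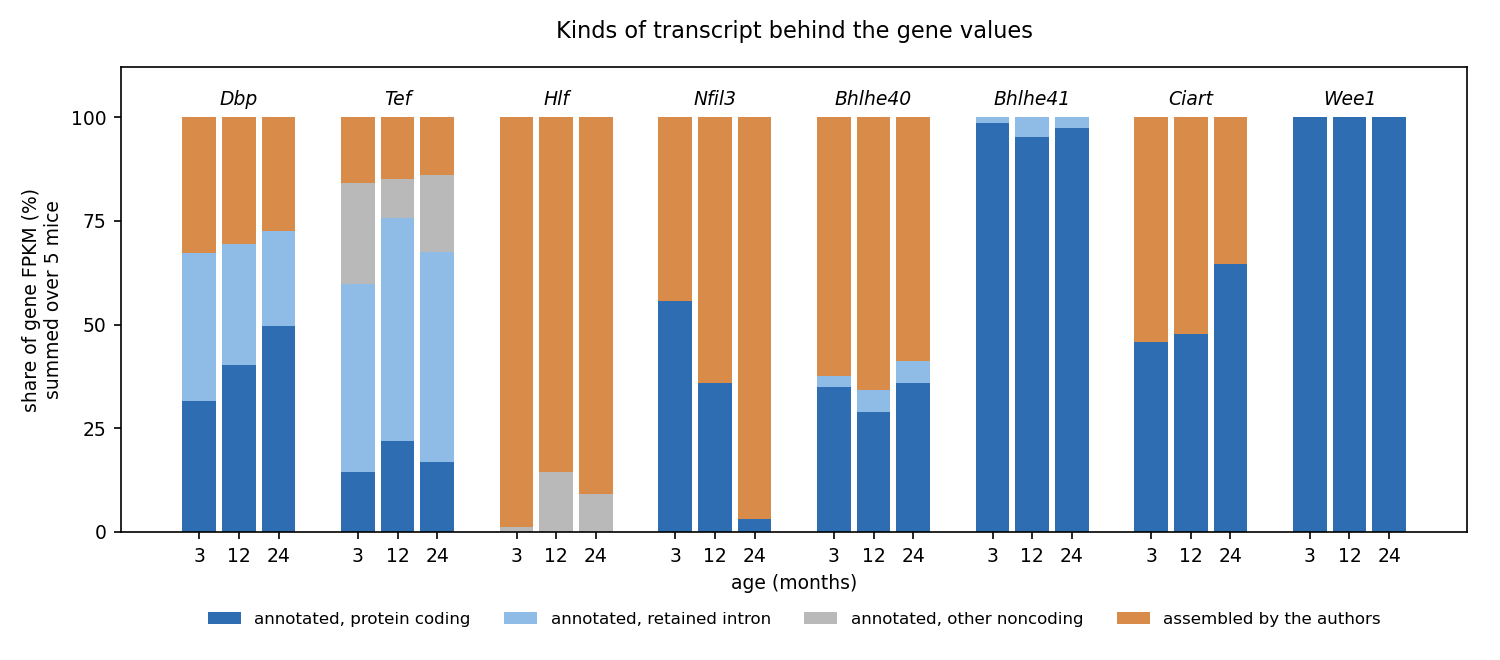
Share of the gene FPKM, summed over the 5 mice of an age (y axis, percent), by kind of transcript for each of the 8 genes at 3, 12 and 24 months (x axis), with dark blue for annotated coding, light blue for annotated retained intron, grey for other annotated noncoding transcripts and orange for transcripts assembled by the authors. The coding share of Nfil3 is 55.8%, 36.0% and 3.22% at 3, 12 and 24 months, but 0.531% at 12 months without mouse 21 and 0.265% at 24 months without mouse 35, and nearly all of Hlf is assembled.

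Hlf consisted almost entirely of assembled transcripts, with 98.7%, 85.4% and 90.8% of its FPKM by age. The longest, MSTRG.6708.4, was 39697 bases in 4 exons, much of the length of the gene, and carried 31.7% of the FPKM at 3, 55.0% at 12 and 63.1% at 24 months. The 4 annotated Hlf transcripts listed are classed as noncoding processed transcripts. The longest of the 4, ENSMUST00000043658 of 2712 bases, was listed at 0 in all 5 mice at 3 months and in 2 of 5 in each older group. The differences of Hlf with annotated transcripts alone, given above, rest on these 4 transcripts. No annotated coding transcript of Hlf was listed, so these values do not give the coding part of its level.

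The annotated Nfil3 mRNA, ENSMUST00000071065, had FPKM of 0.0748, 4.76, 4.83, 6.43 and 6.48 in the 3-month mice. At 12 months it was listed at 0 in 3 mice and at 0.0186 and 1.97 in mice 19 and 21. At 24 months it was listed at 0 in 2 mice and at 0.00212, 0.00547 and 0.09996 in mice 32, 34 and 35. The rest of the gene came mostly from MSTRG.9766.1, an assembled transcript of 2 exons and 4778 bases that overlaps the gene, with mean FPKM of 2.42, 0.609 and 0.540 by age. Young mouse 5, 12-month mouse 21 and 24-month mouse 35 went against their groups, with 89.4%, 3.42% and 17.9% of the Nfil3 level in the assembled transcript. Both transcripts were thus lower in the older mice on average, and the annotated one more so.

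Whether the make-up of a gene differed between ages was tested for genes that passed a level filter over both ages together. For the share of each transcript, limma on the arcsine square root of the share called 25 of 78150 transcripts (0.032%) at an adjusted p under 0.05 for 24 against 3 months, 13 of 78262 (0.0166%) for 12 against 3 months and 5 of 79078 (0.0063%) for 24 against 12 months. Of the transcripts of the clock output genes, 0 of 51, 0 of 53 and 0 of 48 were called. At an unadjusted p under 0.05 they were 7, 5 and 1, beside 7.2%, 6.88% and 4.92% of all transcripts. The share of the annotated Nfil3 mRNA had the smallest p of these, with a mean over mice of 53.6% at 3 and 4.38% at 24 months (exact two-sided permutation p = 0.0159, limma adjusted p = 0.508). In this comparison Nfil3 passed the level filter through its 3-month mice, with gene means of 8.10 FPKM at 3 and 0.668 at 24 months. Its 24-month shares rest on at most 0.09996 FPKM of this mRNA, so these p-values do not decide whether its make-up differed. Nfil3 was not tested at 24 against 12 months. The share of the assembled Hlf transcript MSTRG.6708.3 was 32.1% at 3 and 0.537% at 12 months (exact permutation p = 0.0238, limma adjusted p = 0.644). It was 2.06%, 50.1%, 34.8%, 72.6% and 0.942% in the 3-month mice 5 to 9. Mice 5 and 9 thus lay within the 12-month range, which reached 2.09%. The share of the annotated Bhlhe40 transcript ENSMUST00000032194 was 24.7% at 3 and 15.5% at 12 months (exact permutation p = 0.0159, limma adjusted p = 0.663). The smallest p that 5 against 5 mice can give in the exact test is 0.00794.

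Wee1 was the only one of the 8 genes to host a listed circular RNA, circRNA4235 of 4 exons (chromosome 7, 110124456 to 110126822), among 11929 circular RNAs. Its estimated counts were 104, 60.2, 81.5, 98.8 and 74.0 at 3 months, 147, 107, 131, 65 and 59.8 at 12 months, and 125, 146, 92.5, 152 and 49.2 at 24 months. The 3 ages overlapped. With edgeR's quasi-likelihood test the log2 difference was 0.28 for 24 against 3 months (adjusted p = 0.516), 0.09 for 12 against 3 months (adjusted p = 0.820) and 0.18 for 24 against 12 months (adjusted p = 0.767). By the same test 13.3%, 6.63% and 0.738% of all circular RNAs were called in the 3 comparisons. The mean FPKM of the circle was 4.27, 4.36 and 4.99 by age and exceeded that of the linear gene in 13 of 15 mice, but the 2 tables were normalized separately and the levels are only set side by side.

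The circadian genes also varied between mice of the same age, which the choice of the genes did not use. With each age centred on its mean, Pearson's r of log2(FPKM + 1) over the 15 mice was between -0.48 and 0.76 for the 28 pairs of the 8 genes, with a median of 0.15. It was above 0 for 20 pairs, and 8 pairs had a two-sided p under 0.05 in 100000 permutations within ages. With limma over all genes, age and the partner as terms, 0 of the 28 had an adjusted p under 0.05. When the 2 mice farthest from the median of the first gene were left out, 3 pairs had a permutation p under 0.05 and 17 pairs kept their sign. The 8 pairs all kept a positive r, between 0.337 and 0.792. The labels give no batch within which to repeat them.

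Dbp went with Bhlhe41 (r = 0.76, permutation p = 0.00045; rho = 0.68, p = 0.00221), and r was 0.62 without the 2 mice. It went with Ciart (r = 0.70, permutation p = 0.0105; rho = 0.63, p = 0.0209), with r of 0.79 without them. With Tef the values were close to the threshold (r = 0.56, permutation p = 0.0431; rho = 0.55, p = 0.0503; r = 0.46 without the 2 mice). The limma adjusted p was 0.760 for Bhlhe41 and 0.9998 for Ciart and for Tef.

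Dbp and Nfil3, opposite between ages, had no negative r within them. The values were r = 0.29 (permutation p = 0.331) and rho = 0.325 (permutation p = 0.282), while r without centring was -0.84. With 5 mice per age these tests cannot exclude a negative relation within ages. Nfil3 was between 0.476 and 2.04 FPKM in the older mice, and the log2 scale used understates changes of a gene this low. For the remaining partners of Dbp, r was -0.24 with Hlf (permutation p = 0.487), -0.08 with Bhlhe40 (permutation p = 0.782) and 0.05 with Wee1 (permutation p = 0.856). Tef and Hlf had r = 0.08 (permutation p = 0.803) and Bhlhe40 and Bhlhe41 r = -0.10 (permutation p = 0.779). Dbp, Tef, Bhlhe41 and Ciart thus formed the pairs with the higher positive r, together with Bhlhe40 and Wee1 (r = 0.69, permutation p = 0.0140).

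**Figure D4:**
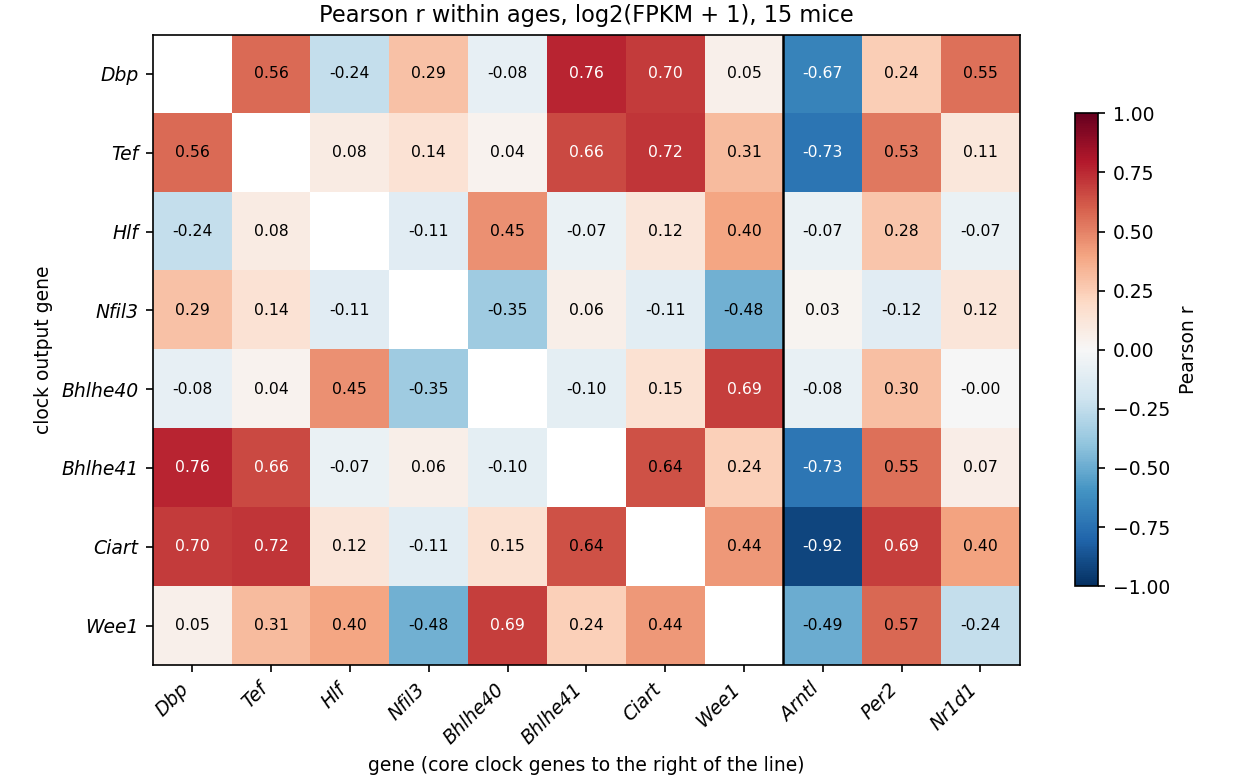
Pearson's r within ages of log2(FPKM + 1) over 15 mice for each pair of the 8 clock output genes (rows and columns) and with Arntl, Per2 and Nr1d1 (columns right of the line), in red above 0 and blue below, with r printed in each cell. The pairs among Dbp, Tef, Bhlhe41 and Ciart lie between 0.56 and 0.76, and all 4 have r between -0.67 and -0.92 with Arntl.

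The relation to the core loop within ages was computed for 24 further pairs, each of the 8 genes with Arntl, Per2 and Nr1d1. Ciart and Arntl had r = -0.92 (permutation p = 3e-05) and rho = -0.97 (permutation p = 2e-05), with r = -0.92 without the 2 farthest mice. With limma over 13445 genes Arntl was the 1 gene whose relation to Ciart passed an adjusted p of 0.05 (adjusted p = 0.0469). That p was adjusted within the scan for Ciart and not over the scans of all 8 genes. This pair is described because its value stood out. For the other 7 genes, 0 genes of as many tested passed. Tef (r = -0.73, permutation p = 0.00195), Bhlhe41 (r = -0.73, permutation p = 0.00489) and Dbp (r = -0.67, permutation p = 0.0146) also had negative r with Arntl, with limma adjusted p of 0.465, 0.948 and 0.9998. Nfil3 had r = 0.03 with Arntl within ages (permutation p = 0.917).

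**Figure D5:**
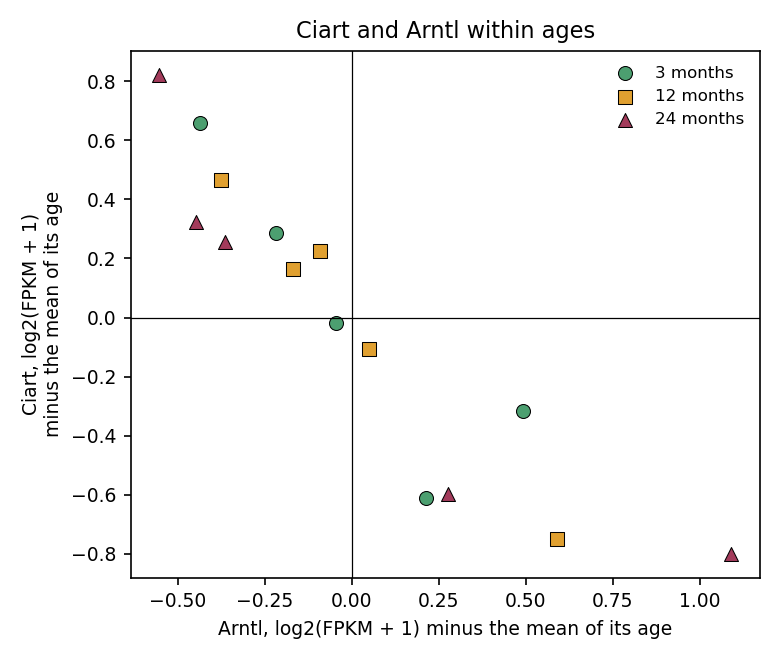
Ciart (y axis) against Arntl (x axis), each as log2(FPKM + 1) minus the mean of its own age, with 1 point per mouse and a colour and marker for each age. The points run from high Ciart with low Arntl to low Ciart with high Arntl at all 3 ages, with r = -0.92 over the 15 mice.

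The genes around these outputs were counted list by list with the same limits. These lists too were chosen with earlier results of these data known, so their counts and p-values here and below are given as a description. Over all genes, 0.523% were past the limits at 24 against 3 months, 0.499% at 12 against 3 months and 0.17% at 24 against 12 months. Of 12 core clock genes, 3 were called at 24 against 3 months, Arntl (log2 difference -2.51, SE 0.32, limma adjusted p = 0.0146) and Npas2, a partner of BMAL1 (-1.97, SE 0.21, adjusted p = 0.00880), lower and Per3 (1.64, SE 0.27, adjusted p = 0.0300) higher. These 3 were also called at 12 against 3 months, where Arntl differed by -1.40 (limma adjusted p = 0.0448), Npas2 by -1.08 (adjusted p = 0.0805) and Per3 by 1.03 (adjusted p = 0.0853). Clock was below the fold limit but passed the adjusted test at 12 against 3 months (-0.58, SE 0.09, limma adjusted p = 0.0495). At 24 against 3 months it did not (-0.45, SE 0.13, limma adjusted p = 0.134). Arntl was between 8.30 and 16.7 FPKM at 3 months, between 2.66 and 6.16 at 12 months and between 0.510 and 3.72 at 24 months. It was also past the limits between 24 and 12 months (-1.10, SE 0.33), with a limma adjusted p of 0.676. Per2 differed by 0.78, -0.07 and 0.85 and Nr1d1 by -0.28, 0.60 and -0.88 for 24 against 3, 12 against 3 and 24 against 12 months, none past the limits. The median over the 12 genes was 0.05, -0.17 and 0.14.

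Of 7 genes known to respond to PAR bZIP factors, 1 was called, Cyp2a5, a cytochrome P450 (log2 difference 1.04 at 24 against 3 months, SE 0.30, limma adjusted p = 0.139). The drug exporter gene Abcb1a was below the fold limit but passed the adjusted test at 24 against 3 months (0.65, SE 0.11, limma adjusted p = 0.0286). Its FPKM was between 1.03 and 1.37 at 3 months, between 1.17 and 2.03 at 12 months and between 1.93 and 2.85 at 24 months. Alas1, the gene of the first enzyme of haem synthesis, lay the other way, below the fold limit and without passing the adjusted test, with log2 differences of -0.85 (SE 0.21, limma adjusted p = 0.0936) at 24 and -0.64 (SE 0.17, limma adjusted p = 0.132) at 12 against 3 months. Ces2a was listed at 0 or near it at all ages, and the median over the 7 genes was 0.32, 0.06 and 0.08 in the 3 comparisons.

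None of 8 genes of G2/M entry, the pathway of WEE1, and none of 4 kinases and ubiquitin ligases of the clock proteins were past the limits in any comparison, with medians between -0.09 and 0.16. None of 7 hypoxia targets were either, with medians between -0.08 and -0.04. Of 6 glucocorticoid-induced genes, 3 were called lower at 24 against 3 months (Fkbp5 -1.12, Zbtb16 -1.43 and Pdk4 -1.20) and 4 at 12 against 3 months (Tsc22d3 -1.50, Sgk1 -1.16, Zbtb16 -1.37 and Pdk4 -1.68), none of them at an adjusted p under 0.05 with limma. Of 8 immediate early genes, 5 were called lower at 24 against 3 months, led by Dusp1 (-1.36, SE 0.27, limma adjusted p = 0.0477) with Atf3 (-1.19), Fosb (-1.53) and Fos (-1.54), and 2 at 12 against 3 months, Dusp1 (-1.03) and Jun. Jun was listed at 0 in all 5 mice at 12 months, in 1 at 3 months and in 2 at 24 months, and was the 1 gene of the lists called higher at 24 against 12 months. The glucocorticoid-induced and immediate early genes named here differed between the same groups of mice as Dbp and Nfil3, and their part in those differences was not tested.

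The genes most like Dbp over all 15 mice, without centring and by Pearson's r of log2(FPKM + 1) among 13439 genes with a mean FPKM of at least 1, were Ces2e (r = 0.94), Gm6309 (r = 0.94) and Ift81 (r = 0.90). Ces2e, a carboxylesterase gene, was between 4.63 and 5.67 FPKM at 3 months and between 8.29 and 12.0 in the older mice. Those most like Nfil3 were Atp2a2 (r = 0.92), Hsph1 (r = 0.89) and Grap (r = 0.88). Atp2a2, the calcium pump of the endoplasmic reticulum, was between 119 and 148 FPKM at 3 months and between 70.1 and 94.8 in the older mice. Such likeness follows the differences between ages and is given as a description.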

How the data were processed

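Ribosome-depleted kidney RNA of 15 mice (5 each at 3, 12 and 24 months) was sequenced, and samples were assigned by the age label. Titles of the older samples carry the prefix of the 3-month mice, at odds with their age label, and the labels name ribosomal RNA depletion where the methods of the study name oligo(dT) purification. The authors mapped reads to GRCm38, assembled transcripts with StringTie and deposited FPKM and mean coverage for each transcript. The ratio of the deposited coverage to FPKM gave the aligned bases per library. Between 4.15% and 5.70% of low values were whole reads (tolerance 0.01), so no counting interval was computed and precision is the spread of 5 mice. For circular RNAs, estimated counts and FPKM were deposited by the authors, with the method not given in the sources used here, and the counts were rounded.

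Gene FPKM was summed over transcripts with the gene name and class code =, c, j or o. Genes detected (above 0) in any of the 10 mice of a comparison were fitted with limma 3.58.1 (trend) in R 4.3.3 on log2(FPKM + 1), with only the mice of both ages. Isoform shares used genes with at least 2 transcripts, a mean FPKM of at least 1 over both ages together and an FPKM above 0 in every mouse compared. Circular RNAs above 0 in at least 5 of 10 mice were tested with edgeR 4.0.16 (TMM). Adjusted p-values are Benjamini-Hochberg over all features fitted, within each comparison and, for relations within ages, separately for each clock output gene. Each sample title was taken as 1 mouse, although the methods of the study also mention pooled RNA. Exact tests used all 252 assignments of 10 mice. Python 3.11.15 with scipy 1.17.1 was used for the rest. The limma fits of genes and of shares and the edgeR fit were tested on simulated data.

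The genes and lists were chosen with earlier results of these data known. Named beside the 8 genes are list genes past the call limits (at most 4 for each list and comparison, by smallest p), Arntl, Per2 and Nr1d1 in every case, the 3 genes most like Dbp and Nfil3, and transcripts of at least 10% of a gene. Abcb1a, Alas1, Ces2a, Aqp2 and Clock were named after their values were seen. Promoter windows and start sites are from RefSeq, transcript classes from GENCODE. The alternatives were other pseudocounts, filters, class codes, scalings, fits and left-out mice. No per-sample column of other samples was present. For the kidney, 1 further marker is not reported here.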

Additional observations from a re-analysis of the deposited data

How the results depend on the processing

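Of the 428 log2 differences of the clock output genes recomputed under an alternative, 412 moved by less than the SD between mice and 16 by more. The latter were Dbp, Nfil3 and Bhlhe41 with a pseudocount of 0.1 or on the TPM scale, Nfil3 with its intronic transcript, and Hlf with annotated transcripts alone, and none of the differences past the limits changed sign. The 412 include a fit of all 15 mice together, a robust variance prior and a filter at a mean FPKM of at least 1. These alternatives cannot change a difference of group means, so their sameness was fixed in advance. The 3, 3 and 0 genes past the limits stayed at 3, 3 and 0 with any single mouse left out. They were 2 of 8 at 12 against 3 months with annotated transcripts alone, where Ciart fell below the limit, and 2, 2 and 0 by an adjusted p under 0.05.

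Over all genes, 166, 158 and 55 were called for 24 against 3, 12 against 3 and 24 against 12 months. A pseudocount of 0.1 gave 1046, 923 and 323, the TPM scale 582, 476 and 191, and an adjusted p under 0.05 alone 386, 79 and 1. Higher against lower were 82 and 84 at 24 against 3 months, 790 and 256 with the pseudocount of 0.1 and 401 and 181 on the TPM scale. At 12 against 3 months they were 88 and 70, and 672 and 251 with the pseudocount of 0.1. At 24 against 12 months they were 21 and 34, 168 and 155 with the pseudocount of 0.1, 104 and 87 on the TPM scale, 20 and 53 with annotated transcripts alone, and 28 and 30 with all class codes. The cause was not tested.

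Isoform shares called were 25, 13 and 5, with 5623, 5381 and 3888 by unadjusted p, 2, 6 and 0 with untransformed shares, and 4 and 3 for the latter 2 comparisons among genes of mean FPKM of at least 5. Leaving out 1 mouse gave between 3 (24-month mouse 33) and 24 at 24 against 3 months, between 14 and 40 (12-month mouse 20) at 12 against 3 months, and between 0 (12-month mouse 17) and 14 (12-month mouse 18) at 24 against 12 months. For circular RNAs, DESeq2 1.42.0 called 1232 at 12 against 3 months and 419 at 24 against 12 months, where edgeR called 791 and 88. Leaving out 1 mouse gave between 856 (24-month mouse 33) and 1735 at 24 against 3 months, between 308 (12-month mouse 19) and 808 at 12 against 3 months, and between 0 (24-month mouse 33) and 390 (12-month mouse 21) at 24 against 12 months. For the Wee1 circle the log2 difference at 12 against 3 months was between -0.0363 and 0.23 when 1 mouse was left out.

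Of the 28 within-age pairs, 8 had a permutation p under 0.05, and 3 without the 2 farthest mice. Without these mice r turned to 0.20 for Dbp and Bhlhe40, 0.39 for Dbp and Hlf and -0.31 for Tef and Hlf. Without centring on age r was 0.25 for Dbp and Hlf, -0.84 for Dbp and Nfil3 and -0.0879 for Dbp and Wee1. That of Dbp and Wee1 was -0.0602 with a pseudocount of 0.1 and -0.0336 on the TPM scale. No paired analysis was possible because the ages share no replicate number. With 5 mice per age and no counts, depth limits the lowest values, such as Dbp at 3 months and Bhlhe41.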
